A study of Mus musculus with 18 samples.

Results

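Tyrobp encodes DAP12, the adaptor through which TREM2 and related receptors of microglia signal. The genes that lie beside Tyrobp on mouse chromosome 7 were examined in microglia labelled as lacking DAP12. A named list of 43 genes was used, by the rule that they lie near Tyrobp on that chromosome. The rule uses none of their values, but the list was put together with earlier results of these data known. It leaves out other genes of the same stretch. Of these 43 genes, 39 had an array probe set that names no other gene and 30 were bright enough to be tested, out of 11630 genes tested and 18194 genes with such a probe set. In the gene order of the RefSeq table (assembly GRCm38.p6) the 43 genes ran from 105 places before Tyrobp (Med29) to 61 places after it (Gramd1a), with 35 of them under 50 places away. Med29 stood apart from the rest of the list, since the next gene before Tyrobp, Cox7a1, lay 18 places away. A place here is 1 gene of any kind in that order. The sources used here name no genome build for the probe sets, so the text gives only the order of the genes.

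Microglia express DAP12 at a high level, and in them it couples receptors to the kinase Syk through a tyrosine-based motif in its tail. An engineered allele is inherited together with the DNA around it, and DNA close to the target can remain from the strain in which the allele was made even after many crosses. A changed locus can also alter how nearby genes are read. The question put to the list was whether genes beside Tyrobp differed between DAP12KO and untreated microglia, with the response to maternal LPS, in which the locus was not targeted, beside it. The sources used here do not give the strain in which the DAP12 allele was made.

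RNA came from microglia of mouse embryos at E17.5 on a C57BL/6 background, sorted by GFP expressed from the Cx3cr1 locus out of hippocampi pooled per pregnant dam, with sex recorded as unknown. The 4 DAP12KO arrays carry the DAP12-/- genotype without treatment. The 6 UT arrays are wild type (DAP12+/+) and untreated. The 4 LPS arrays are wild type embryos of dams with LPS-induced inflammation and the 4 PBS arrays are wild type embryos of PBS-treated control dams, all on Affymetrix mouse arrays. The years in the labels were taken as batches 1 to 4: all DAP12KO arrays and 4 UT arrays were in batch 4, the other 2 UT arrays in batch 3, and LPS and PBS arrays in batches 1, 2 and 4 (1, 2 and 1 of each). The difference of DAP12KO and UT was therefore set by the UT arrays of batch 4, while those of batch 3 added only to the estimate of the spread.

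The arrays held microglia RNA in every group. The mean log2 level of 24 microglia markers such as Cx3cr1 and P2ry12 was 13.24 to 13.49 in DAP12KO arrays and 13.19 to 13.36 in UT arrays of batch 4. Of 22 neuron markers the mean was 5.87 to 6.80 in DAP12KO arrays and 6.32 to 7.17 in UT arrays of batch 4, a difference of −0.41, with 1 of 22 at an unadjusted p under 0.05 (4.55%). Of 9 markers of border macrophages and monocytes it was 7.48 to 8.21 in DAP12KO arrays and 7.40 to 9.87 in UT arrays of batch 4, a difference of −0.82, with 3 of 9 at that level (33.3%, against 5.48% of all tested genes), and the part of these cells in the results below was not tested. The 2 PBS arrays of batch 2 stood apart, with neuron markers up to 10.13 and microglia markers down to 11.22. The 2 LPS arrays of batch 2 came next in neuron markers, at 8.57 and 8.60, with microglia markers at 12.59 and 12.37. On the LPS and PBS arrays of batches 1 and 4 neuron markers reached at most 7.63. The 3′ minus 5′ difference of Gapdh, a measure of RNA integrity, was 0.89 to 1.20 in batch 4 apart from UT replicate 2 at 2.23. It was 2.01 to 3.33 on the LPS and PBS arrays of batches 1 and 2, and 1.31 and 2.77 on the UT arrays of batch 3. Its part in the values of those batches was not tested. On every array between 32.8% and 38.2% of the probe sets lay at the lowest value, log2 2.19.

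Tyrobp itself was lower but not absent in the arrays labelled DAP12KO. Its log2 levels were 13.80, 13.83, 13.75 and 14.23 in DAP12KO arrays, against 14.52, 14.55, 14.52 and 14.41 in UT arrays of batch 4 and 14.48 and 14.29 in those of batch 3. All 4 DAP12KO values lay below all 6 UT values, and 14.23 (replicate 5) lay above the PBS values of batch 2, 14.06 and 13.97. The difference was −0.60 ± 0.13 (log2, SE, adjusted p = 0.301 in limma over all genes), with a 95% interval of −0.87 to −0.32. The gene thus stayed bright in animals labelled DAP12-/-, and the sources used here do not say whether its only probe set lies in the changed part of the gene. Directions drawn from the DAP12KO label below rest on the label. In bulk samples, fewer cells of a type and less RNA per cell cannot be told apart.

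Hcst is the gene next to Tyrobp and encodes DAP10, a smaller adaptor that recruits phosphoinositide 3-kinase. It had log2 levels of 3.22, 4.52, 3.91 and 3.09 in DAP12KO arrays, against 3.68, 3.68, 3.68 and 5.58 in UT arrays of batch 4 and 4.95 and 3.68 in those of batch 3. The groups overlapped, with a difference of −0.47 ± 0.53 (adjusted p = 0.963). That value rested on UT replicate 6 (5.58), without which it was 0.01.

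**Figure D1:**
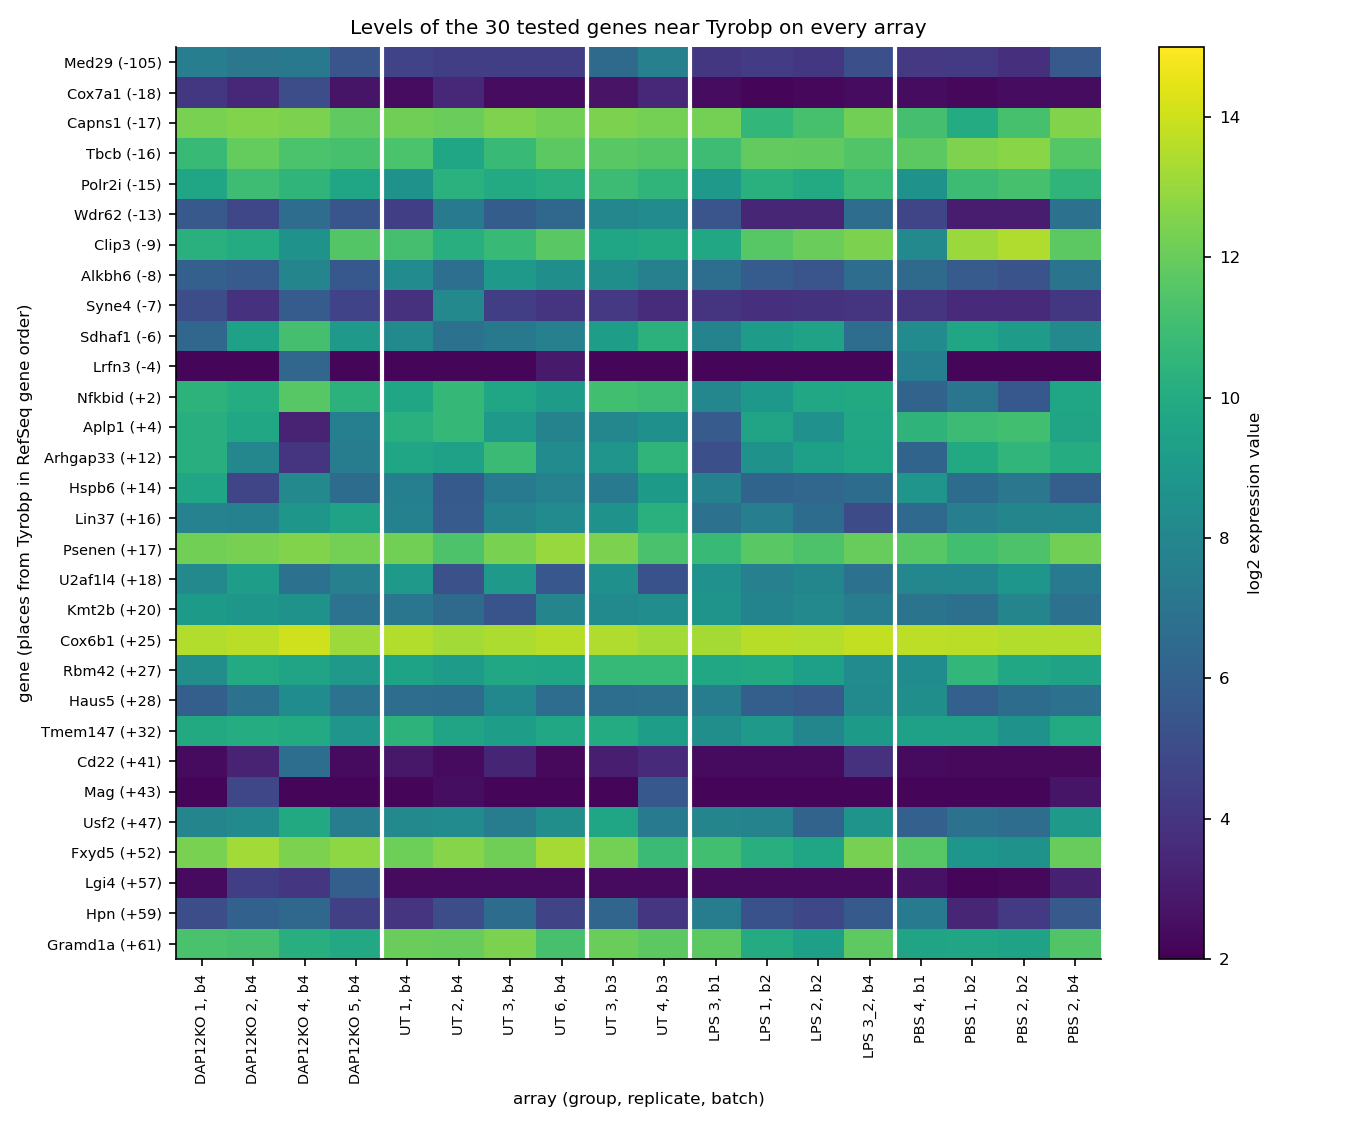
Log2 expression of the 30 tested genes near Tyrobp (rows, in RefSeq gene order with places from Tyrobp) on the 18 arrays (columns, by group, with replicate and batch). White lines part DAP12KO, UT of batch 4, UT of batch 3, LPS and PBS. The Med29 row is brighter in DAP12KO arrays and in the UT arrays of batch 3 than in the UT arrays of batch 4.

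None of the 30 tested genes near Tyrobp differed between DAP12KO and UT after adjustment over all genes (0 of 30 in limma, against 0% of the 11630 genes tested). At an unadjusted p under 0.05 there were 7 (23.3%), against 5.48% of all tested genes. Med29, Lgi4, Kmt2b and Cox7a1 were on the higher side in DAP12KO (4 of 30, against 2.98% of all genes), and Alkbh6, Arhgap33 and Gramd1a on the lower side (3 of 30, against 2.5%). Lgi4 was tested only through its DAP12KO values, since its mean over the 14 wild type arrays (2.44) lay below the intensity filter of 2.49. With the filter on the wild type mean, added after seeing the data, 6 of 29 listed genes were at that level (20.7%, against 5.36% of all genes), 3 of them on the higher side (10.3%, against 2.84%). The list was put together with earlier results of these data known, so these shares carry no test of their own. Of the 30 genes 21 had a difference above 0, which is 70%, against 51.8% of all genes. The median difference was 0.25 for the list and 0.02 over all genes, and the median size of the difference 0.69 and 0.38, at nearly equal median standard errors of 0.60 and 0.58.

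In this list only Med29 had DAP12KO values that did not overlap those of the UT arrays of batch 4 (1 of 30, 3.33%, against 2.37% of all genes). With the UT arrays of batch 3 added, 0 of 30 were free of overlap, against 0.8% of all genes. Against the 6 wild type arrays of batch 4 (UT, LPS and PBS) it was 0 of 30, against 1.18%, and against all 14 wild type arrays 0 of 30, against 0.112%. For 5 of the 30 genes (Capns1, Psenen, Cox6b1, Tmem147 and Fxyd5) the 95% interval of the difference lay within 1 log2 unit of 0 (16.7%, against 16.6% of all genes), so that for most of the list a 2-fold difference in at least 1 direction lay inside the interval.

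**Figure D2:**
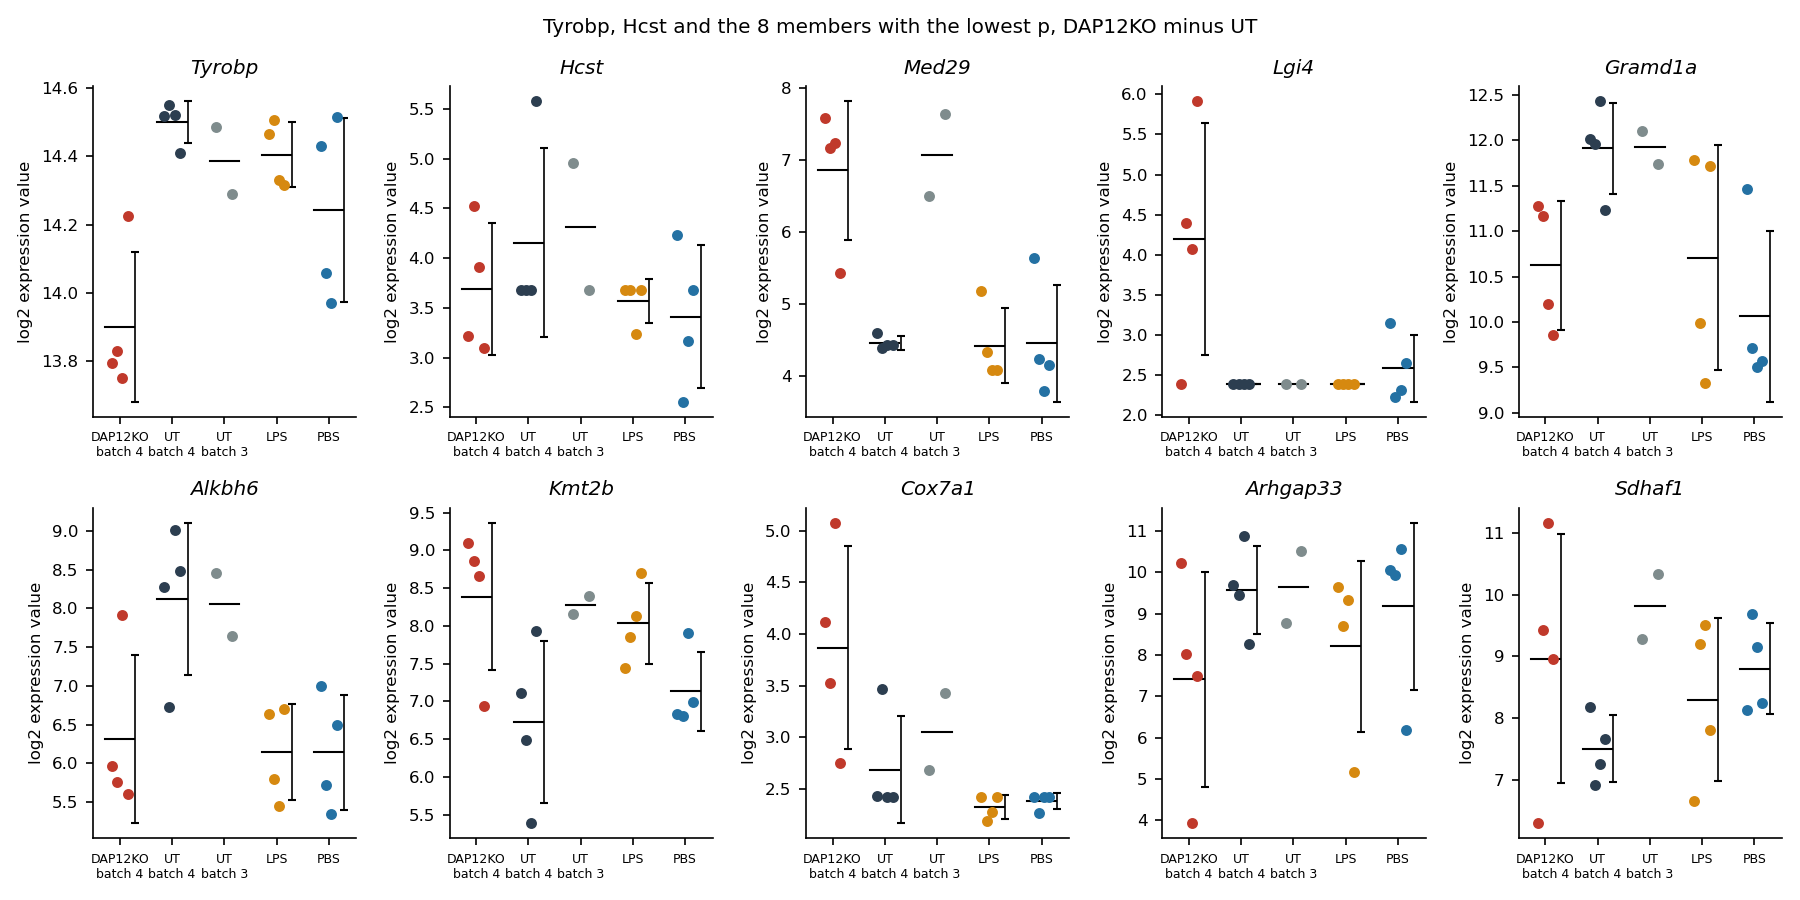
Log2 expression on each array (points) of Tyrobp, Hcst and the 8 listed genes with the lowest p for DAP12KO minus UT, with group means (bars) and 1 SD (whiskers, not drawn for the 2 UT arrays of batch 3). Each panel has its own axis. DAP12KO values lie above all UT values of batch 4 in the panel of Med29 and below all UT values in that of Tyrobp.

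By role the counts are small, and they stand beside the 5.48% of all tested genes at an unadjusted p under 0.05 and the 51.8% with a difference above 0. Among the genes of transcription, chromatin and RNA, 10 are on the list and 8 were tested. Of these 6 had a positive and 2 a negative difference, with 3 at an unadjusted p under 0.05 and 0 after adjustment. Med29 encodes a subunit of Mediator, the complex that links transcription factors to RNA polymerase II. Its log2 levels were 7.58, 7.16, 7.24 and 5.43 in DAP12KO arrays, against 4.59, 4.39, 4.43 and 4.42 in UT arrays of batch 4 and 6.49 and 7.64 in those of batch 3. The UT arrays of batch 3 thus reached the DAP12KO level, and the mean of DAP12KO minus these was −0.21. In batch 4 the LPS array had 5.18 and the PBS array 5.63, the second above DAP12KO replicate 5, while all 6 LPS and PBS arrays of batches 1 and 2 were between 3.80 and 4.33. The difference of DAP12KO minus UT was 2.40 ± 0.51 (adjusted p = 0.301), and it passed, at 2.87 and adjusted p = 0.0457, without DAP12KO replicate 5. Med29 had 2 more probe sets, both near the floor on average in DAP12KO arrays and in UT arrays of batch 4, with differences of 0 and 0.26, and the mean over its probe sets differed by 0.88. The first of these reached 7.17 on another wild type array. Med29 is the gene on the list that lies farthest from Tyrobp.

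Kmt2b, a methyltransferase of histone H3 lysine 4, had 9.10, 8.86, 8.66 and 6.94 in DAP12KO arrays, against 7.11, 6.50, 5.39 and 7.94 in UT arrays of batch 4 and 8.15 and 8.39 in those of batch 3. DAP12KO replicates 1, 2 and 4 lay above all 6 UT arrays and replicate 5 among them. The difference was 1.66 ± 0.61 (adjusted p = 0.814), and against the UT arrays of batch 3, as a plain difference of means, 0.12. The wild type LPS array of batch 1 (8.70) lay above DAP12KO replicate 4 and below replicates 1 and 2. The other LPS and PBS arrays lay below all of replicates 1, 2 and 4. Alkbh6, a member of the AlkB family of dioxygenases, had 5.96, 5.76, 7.92 and 5.60 in DAP12KO arrays, against 8.28, 6.73, 9.02 and 8.48 in UT arrays of batch 4 and 8.46 and 7.65 in those of batch 3. DAP12KO replicate 4 stood at UT levels and the other 3 below all UT arrays, with a difference of −1.82 ± 0.62 (adjusted p = 0.793). Alkbh6 had 5.45 to 6.70 in the 4 LPS arrays and 5.35 to 6.996 in the 4 PBS arrays, also wild type. These values lay below all UT arrays but replicate 2 of batch 4 (6.73), which lay below the PBS array of batch 4. In batch 4 the LPS array (6.63) and the PBS array (6.996) lay above DAP12KO replicates 1, 2 and 5 and below replicate 4.

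The other 5 tested genes of this group had differences between −0.32 and 1.08, each with adjusted p of at least 0.908. Lin37, a subunit of the DREAM complex that represses cell cycle genes, was at 1.08 ± 0.70, with 7.78, 7.69, 8.89 and 9.48 in DAP12KO arrays, against 7.72, 5.75, 7.79 and 8.27 in UT arrays of batch 4 and 8.65 and 10.25 in those of batch 3. The splicing factor U2af1l4 was at 0.80 ± 0.92 (0.14 without UT replicate 2 of batch 4), the RNA polymerase II subunit Polr2i at 0.46 ± 0.43 (0.10 without UT replicate 1 of batch 4) and the helix-loop-helix factor Usf2 at 0.31 ± 0.65. The RNA-binding protein Rbm42 was at −0.32 ± 0.45 by its brightest probe set and at 0.79 and 0.64 by 2 probe sets below the intensity filter. Etv2, an ETS factor of blood and endothelial development, lay below the filter, and Thap8 had no probe set of its own.

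Of the genes of the cytoskeleton, cell division and proteases all 8 were tested, 4 with a positive and 4 with a negative difference, 1 of them at an unadjusted p under 0.05. Arhgap33, a GTPase-activating protein, had 10.21, 8.01, 3.93 and 7.48 in DAP12KO arrays, against 9.68, 9.45, 10.87 and 8.26 in UT arrays of batch 4 and 8.77 and 10.52 in those of batch 3. DAP12KO replicate 1 stood among the UT arrays and replicate 4 far below every other array but those of batch 1. The difference was −2.16 ± 0.97 (adjusted p = 0.896), and −0.999 without DAP12KO replicate 4. Low values of Arhgap33 also appeared in wild type arrays, namely 5.16 with LPS and 6.18 with PBS in batch 1. In batch 4 the LPS array had 9.64 and the PBS array 10.06.

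Clip3, a linker protein of microtubules and membranes, was at −0.83 ± 0.58 by its brightest probe set and at −1.13 by another. The centrosome protein Wdr62 was at −0.36 ± 0.60 by its brightest probe set and at 0.74 by another, so the direction depended on the probe set. Syne4, a protein that links the nuclear envelope to the cytoskeleton, was at −0.24 ± 0.76, with UT replicate 2 of batch 4 at 8.10 and the other 5 UT arrays between 3.66 and 4.42. The same UT array had the Gapdh difference of 2.23, whose part was not tested. The small heat shock protein Hspb6 was at 0.19 ± 0.87, the augmin subunit Haus5 at 0.02 ± 0.60 and the tubulin folding cofactor Tbcb at 0.44 ± 0.36. Capns1, the small subunit of calpain proteases, had 12.37, 12.52, 12.46 and 11.84 in DAP12KO arrays, against 12.20, 12.05, 12.47 and 12.25 in UT arrays of batch 4, a difference of 0.06 with a 95% interval of −0.56 to 0.67.

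The secretase and neural membrane genes numbered 6, of which 5 were tested, 4 with a positive and 1 with a negative difference. Lgi4, a secreted protein known for its part in the myelination of peripheral nerves, had 2.38, 4.39, 4.07 and 5.92 in DAP12KO arrays, against 2.38 in all 6 UT arrays. DAP12KO replicate 1 was thus at the UT value and the other 3 above it, and in the other wild type arrays the highest value was 3.15 in the PBS array of batch 4. The difference was 1.81 ± 0.53. All UT values lay under the intensity filter of log2 2.49 and the gene entered the test only through the DAP12KO arrays, so the difference is given as a description. The mean of 5 oligodendrocyte and myelin markers was 3.95 to 4.41 in DAP12KO arrays and 4.14 to 4.28 in UT arrays of batch 4, a difference of −0.02, and their part in the Lgi4 values was not tested.

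Mag, a glycoprotein of myelin, was at the lowest value of 2.19 on 3 DAP12KO arrays and at 4.77 on replicate 2, against 2.19 to 2.47 in UT arrays of batch 4 and 2.19 and 5.60 in those of batch 3. Lrfn3, an adhesion protein of synapses and the nearest tested gene before Tyrobp in the gene order, was at 2.19 on 3 DAP12KO arrays and at 6.30 on replicate 4, against 2.19 to 2.96 in all UT arrays. Each of these differences, 0.58 for Mag and 0.83 for Lrfn3, came from 1 DAP12KO array.

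Aplp1, a relative of the amyloid precursor protein that is strong in neurons, had 10.15, 9.74, 3.23 and 7.59 in DAP12KO arrays, against 10.27, 10.64, 9.04 and 7.80 in UT arrays of batch 4 and 8.03 and 8.51 in those of batch 3. DAP12KO replicate 4 stood far below the others, and the same array had the lowest mean of the neuron markers among the DAP12KO arrays (5.87), whose part was not tested. The difference was −1.76 ± 1.20 (adjusted p = 0.908), −1.27 by a second probe set and −0.27 without DAP12KO replicate 4. Psenen, a subunit of gamma-secretase, had 12.21, 12.34, 12.55 and 12.27 in DAP12KO arrays, against 12.21, 11.36, 12.39 and 13.02 in UT arrays of batch 4, a difference of 0.10 with a 95% interval of −0.61 to 0.81. Kirrel2, a cell adhesion protein, had no probe set of its own.

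Of 4 genes of respiration and mitochondria 3 were tested, all with a positive difference and 1 at an unadjusted p under 0.05. Cox7a1, the heart and muscle form of a cytochrome c oxidase subunit, had 4.12, 3.52, 5.08 and 2.75 in DAP12KO arrays, against 2.43, 3.47, 2.43 and 2.43 in UT arrays of batch 4 and 2.68 and 3.43 in those of batch 3. DAP12KO replicates 1, 2 and 4 lay above all 6 UT arrays, replicate 2 by less than 0.1, and replicate 5 among them. The difference was 1.18 ± 0.44 (adjusted p = 0.825), with 3 of 4 UT arrays of batch 4 under the intensity filter, and 0.77 without DAP12KO replicate 4. Sdhaf1, an assembly factor of succinate dehydrogenase, had 6.30, 9.43, 11.17 and 8.96 in DAP12KO arrays, against 8.19, 6.92, 7.26 and 7.66 in UT arrays of batch 4 and 9.29 and 10.34 in those of batch 3. The DAP12KO arrays lay on both sides of the UT arrays, at 1.46 ± 0.76 (adjusted p = 0.908). Without DAP12KO replicate 1 it was 2.35 (adjusted p = 0.41), without DAP12KO replicate 4 it was 0.72 and with no batch term 0.69. Cox6b1, a cytochrome c oxidase subunit of most tissues, had 13.50, 13.68, 14.04 and 13.08 in DAP12KO arrays, against 13.51, 13.22, 13.40 and 13.63 in UT arrays of batch 4, a difference of 0.14 with a 95% interval of −0.25 to 0.53. Prodh2, hydroxyproline dehydrogenase, was at the lowest value on every array.

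Immune receptors and signalling genes numbered 7, of which 3 were tested, all 3 with a positive difference and 0 at an unadjusted p under 0.05. Nfkbid, a nuclear member of the IκB family that modulates targets of NF-κB, lies 2 places after Tyrobp. It had 10.39, 10.03, 11.62 and 10.36 in DAP12KO arrays, against 9.65, 10.68, 9.69 and 9.18 in UT arrays of batch 4 and 11.05 and 10.89 in those of batch 3. The groups overlapped, with a difference of 0.80 ± 0.54 (adjusted p = 0.908) and a 95% interval of −0.35 to 1.95. Cd22, an inhibitory receptor for sialic acid known from B cells and microglia, had 2.36, 3.27, 6.68 and 2.38 in DAP12KO arrays, against 2.85, 2.38, 3.35 and 2.32 in UT arrays of batch 4 and 3.10 and 3.56 in those of batch 3. Its difference of 0.95 ± 0.73 came from replicate 4, and without that array it was −0.06. Of 10 B and T cell markers 6 lay near the floor on all arrays and 1, Cd79b, was tested. It had 9.89 to 10.73 in DAP12KO arrays, against 8.66 to 9.54 in UT arrays of batch 4 and 10.45 and 10.60 in those of batch 3, a difference of 1.13 (adjusted p = 0.908), and its part in the Cd22 values was not tested.

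Fxyd5, also called dysadherin, belongs to the FXYD family of regulators of the sodium-potassium pump. It had 12.38, 13.21, 12.42 and 12.80 in DAP12KO arrays, against 12.14, 12.66, 12.18 and 13.22 in UT arrays of batch 4, a difference of 0.15 with a 95% interval of −0.64 to 0.94. The fatty acid receptor Ffar2 and the zinc finger repressor Zbtb32 lay below the filter. Igflr1 and the fatty acid receptor Ffar1 had no probe set of their own.

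Of the other 8 membrane proteins 3 were tested, 1 with a positive and 2 with a negative difference. Gramd1a, a cholesterol transfer protein of the endoplasmic reticulum, had 11.27, 11.17, 10.20 and 9.85 in DAP12KO arrays, against 12.02, 11.96, 12.43 and 11.23 in UT arrays of batch 4 and 12.10 and 11.74 in those of batch 3. The highest DAP12KO value, 11.27, overlapped only the lowest UT value, 11.23. The difference was −1.29 ± 0.41 (adjusted p = 0.784), and against the UT arrays of batch 3, as a plain difference of means, −1.30. Values as low as in DAP12KO arrays were also measured in wild type arrays of batches 1 and 2, from 9.33 to 9.99 with LPS and from 9.50 to 9.71 with PBS apart from 1 LPS array at 11.72. In batch 4 the LPS array had 11.78 and the PBS array 11.47, both above all DAP12KO values. Tmem147, an endoplasmic reticulum membrane protein, was at −0.10 ± 0.41 and the serine protease Hpn at 0.41 ± 0.68. Fxyd1, Fxyd3, Fxyd7, the lipoprotein receptor Lsr and the uroplakin Upk1a lay below the filter, with values from 2.19 to 3.26 over all arrays.

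**Figure D3:**
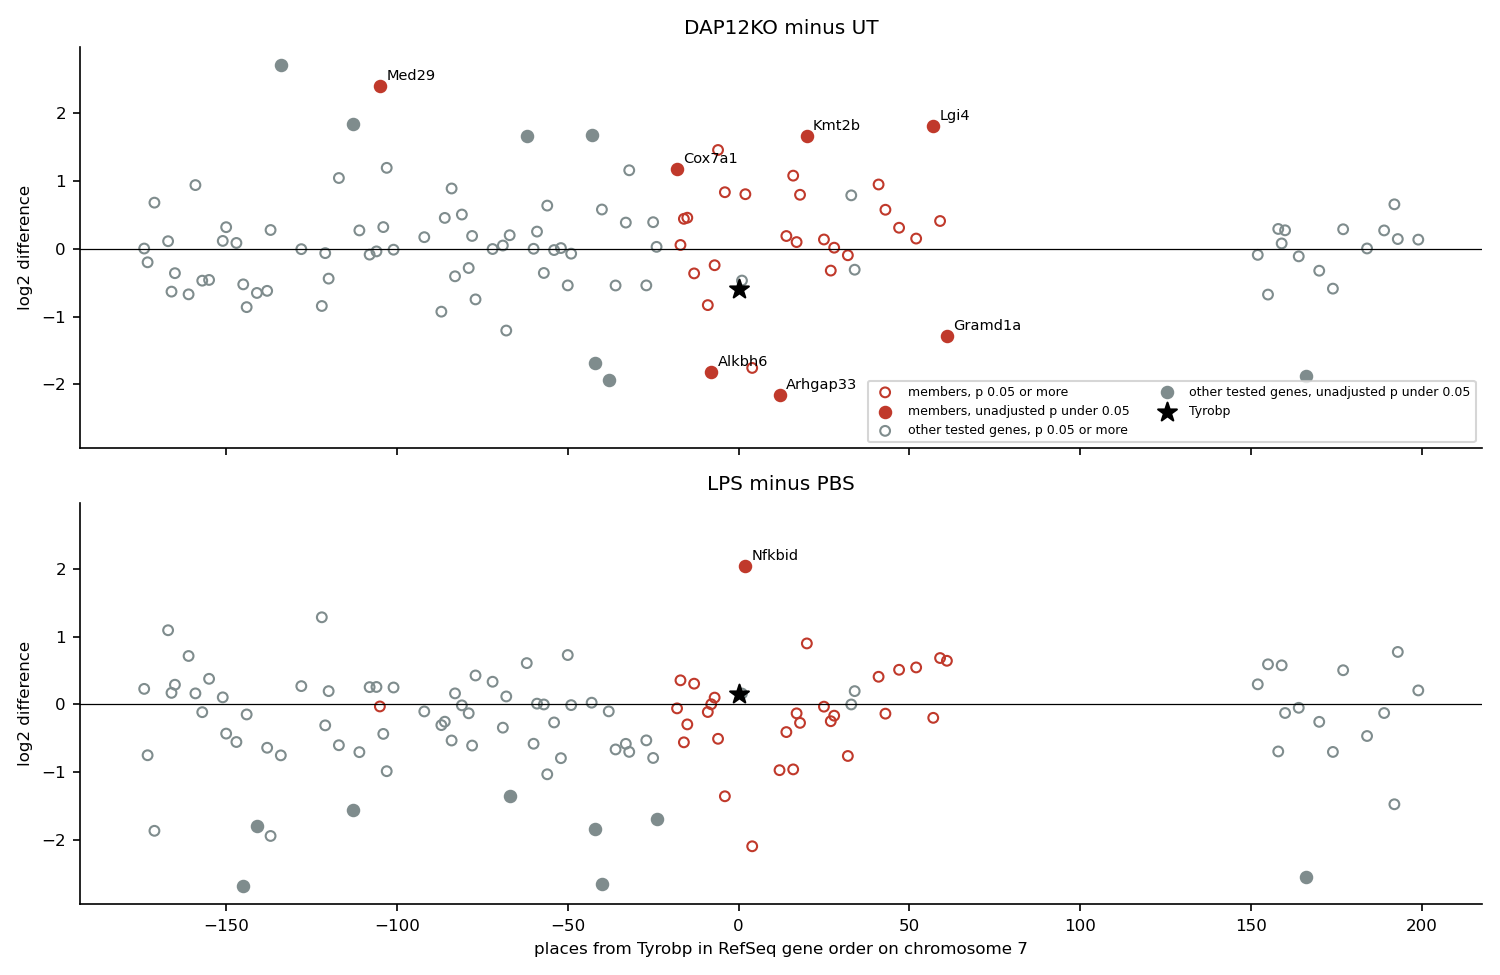
Difference of means (log2, vertical axis) of each tested gene within 200 places of Tyrobp against its place in the RefSeq gene order (horizontal axis), for DAP12KO minus UT (top) and LPS minus PBS (bottom). Red marks are listed genes, grey marks other genes, filled marks an unadjusted p under 0.05 and the star Tyrobp. In the top panel filled marks lie on both sides of 0 and of Tyrobp.

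The tested genes nearest to Tyrobp went both ways. The 6 tested genes nearest to it on one side were Lrfn3, Sdhaf1, Syne4, Alkbh6, Clip3 and Wdr62, and on the other Hcst, Nfkbid, Aplp1, Arhgap33, Hspb6 and Lin37. Of these 12 genes 5 had a positive and 7 a negative difference, and Alkbh6 and Arhgap33 were at an unadjusted p under 0.05. Among genes within 25 places of Tyrobp, listed or not and Tyrobp itself left out, 4 of 22 (18.2%) were at that level, and within 50 places 7 of 40, against 5.48% of all tested genes. With the filter on the wild type mean it was 6 of 38 within 50 places (15.8%, against 5.36%), since Gm38983 had passed only through its DAP12KO values. With the filter on the mean of all arrays it was 3 of 24 (12.5%) beyond 50 and up to 100 places. These 3 include Lgi4, tested only through its DAP12KO values. With the same filter it was 4 of 47 (8.51%) beyond 100 and up to 200 places. On the rest of chromosome 7 it was 38 of 775 (4.9%). After adjustment 0 genes were called in each of these windows by limma.

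The share within 50 places was thus above that of the rest of the chromosome by a count of few genes, and the count of 7 became 3 without UT replicate 2 or 3 of batch 4 and 4 without DAP12KO replicate 5. Chromosome 7 as a whole had 53 of 887 genes at an unadjusted p under 0.05 (5.98%), the 8th highest share of 20 chromosomes, which ran from 1.07% on the X chromosome to 7.84% on chromosome 12. For LPS minus PBS the shares were 9.09% within 25 places, 10% within 50 places and 12.4% on the rest of chromosome 7, against 12.4% of all tested genes. The plot of shares by place shows both comparisons side by side.

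**Figure D4:**
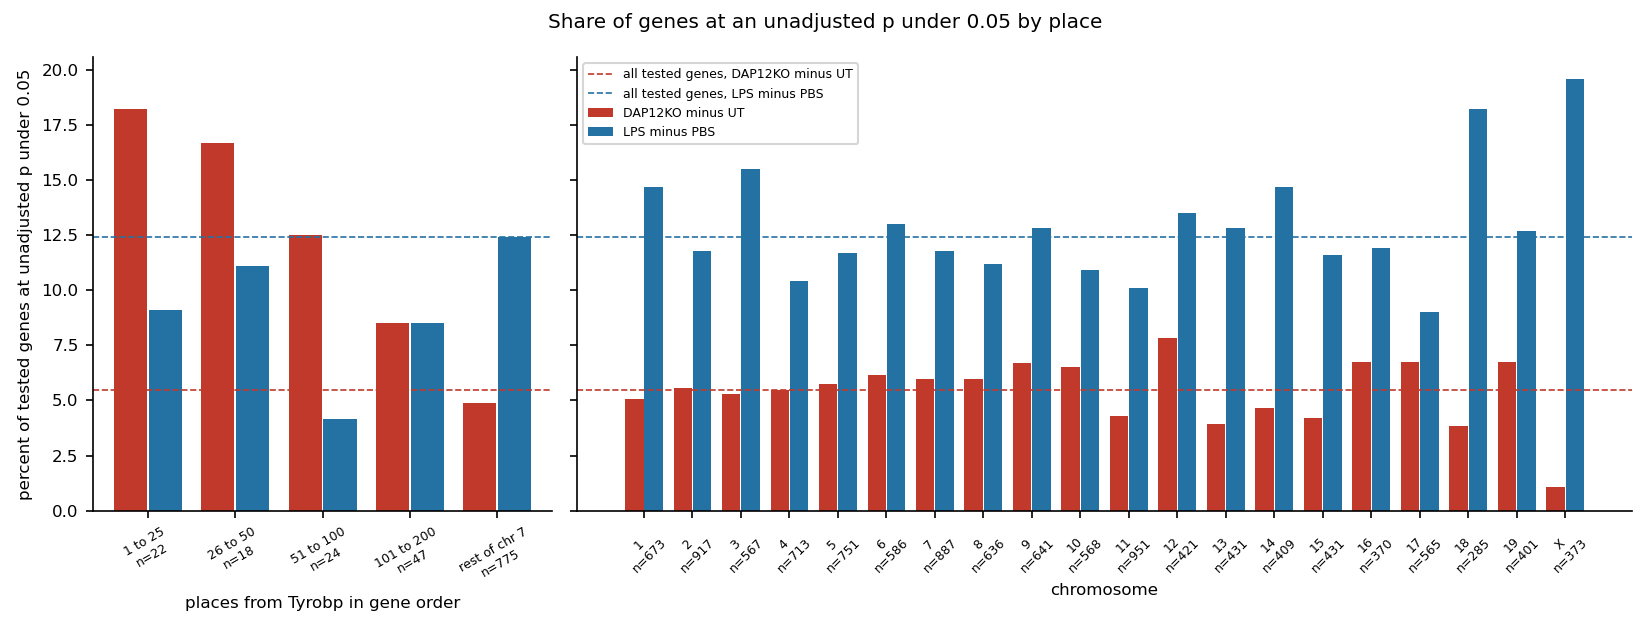
Percent of tested genes at an unadjusted p under 0.05 for DAP12KO minus UT (red) and LPS minus PBS (blue), by distance from Tyrobp in gene order (left) and by chromosome (right), with the number of tested genes under each pair of bars. Dashed lines are the shares over all tested genes, 5.48% and 12.4%. The red bars fall from 18.2% within 25 places to 4.9% on the rest of chromosome 7. The bar of 26 to 50 places counts Gm38983 and that of 51 to 100 places Lgi4, both tested only through their DAP12KO values.

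Listed and unlisted genes were set side by side without a test of the difference. Between Med29 and Gramd1a 68 genes were tested, and of the 38 that are not listed 4 (10.5%) were at an unadjusted p under 0.05, against 7 of the 30 listed. Within 50 places it was 3 of 15 unlisted genes (20%) and 4 of 25 listed ones (16%). The other 3 of the 7 were among the 5 listed genes beyond 50 places. Gm38983 among the unlisted genes and Lgi4 among the listed ones were tested only through their DAP12KO values. Within 200 places the unlisted genes at that level, named after their values were seen, were Zfp974 (2.71), Timm50 (1.84), Gm38983 (1.68) and Fam98c (1.66) on the higher side and Zfp790 (−1.93), Kctd15 (−1.88) and Zfp84 (−1.68) on the lower side in DAP12KO. In LPS minus PBS these unlisted genes had −0.75 (Zfp974), −1.56 (Timm50), 0.03 (Gm38983), 0.61 (Fam98c), −0.10 (Zfp790), −2.55 (Kctd15) and −1.84 (Zfp84). Timm50, Kctd15 and Zfp84 were there at an unadjusted p under 0.05 in limma, against 12.4% of all tested genes. Of these unlisted genes only Zfp790 changed sign against the UT arrays of batch 3 (0.56, plain difference of means). Zfp974 (0.27), Timm50 (0.28) and Kctd15 (−0.18) kept their sign there, but most of their difference was gone. Gm38983 was at 1.45, Fam98c at 1.02 and Zfp84 at −2.77 against these arrays. Zfp84, a zinc finger gene 42 places before Tyrobp, averaged 7.16 ± 0.70 in DAP12KO arrays and 8.83 ± 0.78 in UT arrays of batch 4 (SD, n = 4 each), and all DAP12KO values lay below all 6 UT values. They overlapped the wild type arrays of batch 4 once LPS and PBS were added. Gm38983, at 43 places before Tyrobp, was at the lowest value in all 4 UT arrays of batch 4, and its mean over the wild type arrays (2.23) lay below the filter.

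Single arrays weighed on many of these values. For 25 of the 30 genes the difference of DAP12KO minus UT moved by over 1.5 times, or changed sign, when 1 array was left out, and of the 7 genes at an unadjusted p under 0.05 this held for 2, Cox7a1 and Arhgap33. Replicate 4 was the array farthest from the DAP12KO median in 12 of the 30 genes (40%, against 31% of all tested genes), replicate 5 in 8 (26.7%, against 23.2%), replicate 2 in 7 (23.3%, against 20.9%) and replicate 1 in 3 (10%, against 24.9%). Replicate 4 was the lowest DAP12KO array for Arhgap33, Aplp1, Clip3 and U2af1l4. It was the highest for Sdhaf1, Cox7a1, Cd22, Lrfn3, Alkbh6, Nfkbid, Usf2, Haus5, Wdr62, Psenen, Cox6b1, Syne4 and Hpn.

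Between LPS and PBS the genes near Tyrobp differed by a median size below that of all genes. Of the 30 genes 0 passed after adjustment in limma (against 0.0946% of all genes) and 1, Nfkbid, was at an unadjusted p under 0.05 (3.33%, against 12.4%), on the higher side (against 3.47% of all genes), with 0 on the lower side (against 8.98%). LPS and PBS values overlapped for all 30 (0%, against 1.96% of all genes). A difference above 0 was found for 11 of 30 (36.7%, against 42.2%). The median difference was −0.12 for the list and −0.12 over all genes, and the median size 0.38 and 0.48. Of the 7 genes named above for DAP12KO minus UT, the LPS minus PBS differences were −0.03 for Med29, −0.20 for Lgi4, 0.64 for Gramd1a, 0.003 for Alkbh6, 0.90 for Kmt2b, −0.06 for Cox7a1 and −0.97 for Arhgap33, with adjusted p of at least 0.542.

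Nfkbid had the lowest p of the list for LPS minus PBS. Its levels were 9.88 in the LPS array of batch 4, 8.94 and 9.73 in batch 2 and 8.03 in batch 1, against 9.62 in the PBS array of batch 4, 7.09 and 5.57 in batch 2 and 6.15 in batch 1. Each LPS value lay above the PBS values of its batch, though the groups overlapped over batches. The difference was 2.04 ± 0.54 (adjusted p = 0.169), and within batches 1, 2 and 4 it was 1.88, 3.004 and 0.26. Batch 4 held 1 LPS and 1 PBS array, so without either of them the difference came from batches 1 and 2 alone. It was then 2.63 and passed (adjusted p = 0.0442 without LPS replicate 3_2, 0.044 without PBS replicate 2). With array weights it also passed (2.61, adjusted p = 0.0048). It did not pass with no batch term (2.04, adjusted p = 0.643) or with only the 2 groups compared (2.04, adjusted p = 0.462). Without the 2 PBS arrays of batch 2, which held the most neuron markers, it was 1.07 (adjusted p = 0.517).

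The promoters of Nfkbid and Med29 are shown because Nfkbid was the listed gene with the lowest p in LPS minus PBS and Med29 that in DAP12KO minus UT, a choice made after their values were seen. The windows hold 300 bases around the start and come from RefSeq (GRCm38.p6). Capitals mark matches on either strand to GGGANTTCC (a form of the NF-κB motif), CCGGAA (ETS), GGGCGG (Sp1) and CCAAT (NF-Y), and none of the matches overlapped. Of 3 starts listed for Nfkbid the second is printed (chr7:30422156-30422455, plus strand), the only 1 of them with matches to GGGANTTCC. The Med29 window is chr7:28392641-28392940 on the minus strand.
Nfkbid: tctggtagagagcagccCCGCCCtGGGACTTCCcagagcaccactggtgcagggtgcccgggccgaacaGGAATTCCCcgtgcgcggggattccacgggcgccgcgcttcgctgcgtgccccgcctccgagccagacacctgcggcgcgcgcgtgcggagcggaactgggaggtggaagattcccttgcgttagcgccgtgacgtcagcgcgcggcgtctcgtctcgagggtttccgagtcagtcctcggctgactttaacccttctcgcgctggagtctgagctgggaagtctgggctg
Med29: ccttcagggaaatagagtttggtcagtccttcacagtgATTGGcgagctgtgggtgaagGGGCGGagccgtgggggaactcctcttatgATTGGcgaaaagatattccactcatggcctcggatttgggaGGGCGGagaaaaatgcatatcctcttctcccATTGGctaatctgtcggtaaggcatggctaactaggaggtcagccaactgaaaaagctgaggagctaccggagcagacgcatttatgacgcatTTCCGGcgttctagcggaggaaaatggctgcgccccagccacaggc

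The Nfkbid window holds 2 matches to GGGANTTCC and 1 to GGGCGG. Among the 32851 promoter windows of this length, 1.68% hold GGGANTTCC and 35.7% GGGCGG. These are shares of single windows, while Nfkbid had 3 windows from which 1 was printed. The windows of the other Nfkbid starts hold 0 matches to GGGANTTCC. The Med29 window holds 1 match to CCGGAA, 2 to GGGCGG and 3 to CCAAT, which 14.9%, 35.7% and 37.4% of all windows hold. These matches describe the letters in the windows and were not set against any measurement of binding.

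The test of whether the DAP12KO response differed from the LPS response gave 0 of 30 listed genes after adjustment (limma, against 0% of all genes). At an unadjusted p under 0.05 there were 3 (10%, against 8.11% of all genes), namely Med29 at 2.42 and Lgi4, tested only through its DAP12KO values, at 2.003 (2 of 30, 6.67%, against 5.79%) and Gramd1a at −1.93 (1 of 30, 3.33%, against 2.32%). Of the 30 genes 18 had a difference above 0 (60%, against 57.7% of all genes). The median difference of the responses was 0.28 for the list and 0.17 over all genes. The responses were therefore not shown to differ for any listed gene.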

How the data were processed

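Microglia RNA was measured on 18 arrays. The authors deposited log2 expression values for 45101 probe sets. RMA, which corrects, normalizes and summarizes probes, is named in the submitters' processing notes without a version. Depth has no meaning here, and the number of arrays limits the precision. Of the probe sets 34958 named 1 gene symbol, and each gene was represented by the one with the highest mean. Those under the 40th percentile of probe set means (log2 2.49) were left out. Group means with batch as an additive term were fitted to all 18 arrays with limma 3.58.1 in R 4.3.3 (variance trend, 11 residual degrees of freedom), with two-sided p adjusted by Benjamini and Hochberg's method over the 11630 genes tested and a threshold of 0.05. The procedure was tested on simulated data. Figures used matplotlib 3.10.9 in Python 3.11.15.

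The listed genes and marker lists were chosen with earlier results of these data known. The text names all 43 listed genes by role, those called in DAP12KO minus UT or else the 8 with the lowest p in full, Tyrobp and Hcst, the 6 nearest tested genes on either side of Tyrobp, and called genes within 200 places. Each array holds RNA of 1 pool per pregnant dam. In batch 2 LPS and PBS arrays of the same number deviated alike (Pearson r = 0.53 over genes, with only 2 pairs, which does not settle a pairing). For DAP12KO and UT r was −0.01 and 0.01. Alternatives were the filter, batch term, array weights, normalization, probe set choice, a replicate block and leaving out arrays.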

Additional observations from a re-analysis of the deposited data

Results flagged for a closer look

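Of 128 groups of 4 or 6 arrays, formed by the 30 tested genes near Tyrobp, Tyrobp and Hcst in 4 groups, 17 held 1 array far from the others by Dixon's ratio, a test by which chance marks about 1 group in 20. Several of them were values above a floor at which the other arrays were tied. The LPS, PBS and UT groups pool batches. Batches 1 and 4 hold 1 LPS and 1 PBS array each, so a flag on such an array cannot be told apart from its batch. Tyrobp was highest on DAP12KO replicate 5 at 14.23, with the other 3 between 13.75 and 13.83. In DAP12KO arrays Alkbh6 was highest on replicate 4 at 7.92 (others up to 5.96), Lrfn3 on replicate 4 at 6.30 (others at 2.19), Mag on replicate 2 at 4.77 (others at 2.19), and Tmem147 lowest on replicate 5 at 8.77 (others from 9.88).

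In UT arrays Syne4 was highest on replicate 2 of batch 4 at 8.10 (others up to 4.42), Haus5 on replicate 3 of batch 4 at 8.09 (others up to 6.80), Lrfn3 on replicate 6 of batch 4 at 2.96 (others at 2.19) and Mag on replicate 4 of batch 3 at 5.60 (others up to 2.47). In LPS arrays Hcst was lowest on replicate 2 of batch 2 at 3.24 (others at 3.68) and Cd22 highest on replicate 3_2 of batch 4 at 3.84 (others up to 2.38).

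In PBS arrays the array of batch 1, replicate 4, was highest for Lrfn3 at 7.61 (others at 2.19) and lowest for Arhgap33 at 6.18 (others from 9.92). Replicate 2 of batch 4 was highest for Gramd1a at 11.47 (others up to 9.71) and for Mag at 2.73 (others at 2.19). In batch 2 Cox7a1 was lowest on replicate 1 at 2.27 (others at 2.43) and Kmt2b highest on replicate 2 at 7.90 (others up to 6.99).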

How the results depend on the processing

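Under the 33 alternatives 0 of the 30 listed genes passed in DAP12KO minus UT, except without DAP12KO replicate 5, where Med29 passed, so that leaving out arrays gave 0 to 1. The count at an unadjusted p under 0.05, 7 as reported, ran from 5 to 9. Over all genes 0 passed as reported, and leaving out each array gave 0 to 6. Of the 30 genes 16 kept the sign of their difference under every alternative and 14 did not, 0 of them among the 7. Hcst, at −0.47, was 0.0066 without UT replicate 6 of batch 4. Against all 14 wild type arrays as 1 group, an alternative chosen after seeing the data, Med29 was 2.08 (adjusted p = 0.395) and Tyrobp −0.58 (adjusted p = 0.188). With the filter on the wild type mean, also chosen after seeing the data, 6 of the 7 remained and Lgi4 was not tested. With the replicate block the counts at an unadjusted p were 7 for DAP12KO minus UT, 1 for LPS minus PBS and 5 (against 3) for the difference of the responses, and the block changed no other call. The count within 50 places of Tyrobp, 7, was 4 with the filter at the 60th percentile, 4 without moderation and 3 to 6 with arrays left out. It was 4 in a window of 25 places and 14 in one of 200. For LPS minus PBS the 1 gene at an unadjusted p became 4 with only the 2 groups compared, 3 with array weights, 2 with every probe set or with the mean over probe sets, 0 without both PBS arrays of batch 2, and 1 to 2 with arrays left out. After adjustment 1 gene, Nfkbid, passed with array weights, and 0 to 1 with arrays left out. For the difference of the responses the 3 genes became 5 with no trend, 7 with array weights, 5 with the mean over probe sets, 5 without both PBS arrays of batch 2, and 3 to 6 with arrays left out. Over all genes LPS minus PBS gave 0 to 826 calls (11 as reported) and the difference of the responses 0 to 18 (0 as reported). The causes were not tested. Values near the floor, 4 arrays a group, and a DAP12KO group in 1 batch limit all of this.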
